A study of Mus musculus with 12 samples.

Results

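The Zfp genes measured here are the protein-coding mouse genes whose name is Zfp followed only by a number below 600, with Zfp36 and Zfp42 left out. GENCODE M1, the gene annotation used to join transcripts to genes, holds 198 such genes under 197 names, since Zfp319 has more than 1 gene identifier. Of the 198, 195 have deposited exonic and intronic rows, among 21503 protein-coding genes with an exonic row. The genes without a row are Zfp353, Zfp87 and 1 of the Zfp319 identifiers (ENSMUSG00000074140). The rule for members uses name and biotype and no measured value, although it was set with earlier results of these data known.

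The cells were mouse embryonic stem cells (mESCs) of the XY line DTCM23/49. They were grown with 200 µM 4-thiouridine (4sU), a uridine analog that cells take up into newly made RNA, for 15, 30 or 60 min. At each labeling time RNA was sequenced as labeled RNA, the biotinylated and pulled-down fraction, and as total RNA, with 2 biological replicates each, which gives 6 labeled and 6 total libraries. The replicates come from 1 culture that was divided and passaged 8 times. The main test held no term for the culture and took the libraries as independent. Its p-values therefore measure the spread between libraries of these 2 cultures, and do not measure the spread between cultures by itself. A library without 4sU was not analysed here, so carry-over of unlabeled RNA into the labeled fraction cannot be told apart from labeled RNA.

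The labeled libraries were not alike. Introns took 14.8% and 7.24% of the signal in replicates 1 and 2 at 15 min, 9.35% and 10.8% at 30 min, and 13.9% and 6.99% at 60 min. In the total libraries the intronic share ran from 6.53% to 7.41%, so replicate 2 at 15 min and at 60 min lay within the range of total RNA. The summed exonic abundance of the Zfp genes was 98892 in labeled replicate 2 at 15 min and between 57001 and 79692 in the other labeled libraries. Among the labeled libraries, that library held the highest value for 100 of the 153 Zfp genes tested, and labeled replicate 2 at 60 min held the lowest for 79. The main counts and medians are given with and without these libraries.

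The markers of mESCs were present in every library. All 10 had a mean exonic abundance of at least 20, led by Dppa5a at 7684, and their sum ran from 19832 to 32852 in labeled and from 21111 to 29656 in total libraries. Of the 6 fibroblast markers, the collagen genes were near 0, Col3a1 and Postn had no exonic value in any library, and the sum, mostly Acta2 at 75.6 and Thy1, ran from 68.7 to 105 in labeled and from 119 to 142 in total libraries. Primitive endoderm markers summed to at most 75.6 and were led by Dab2 at 38.1. Mesoderm and neuroectoderm markers summed to at most 226 and were led by Pax6 at 54.0. Of the 6 markers of 2-cell-like cells, 4 are in GENCODE M1 and could be measured, while Tcstv1 and Tcstv3 are not. None of these 4 reached 20, and the most abundant, Zfp352 at 14.2, is itself a Zfp gene. The part of these other cell types in the results was not tested. In such bulk RNA, fewer cells that use a gene and less RNA per cell cannot be told apart.

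Most Zfp genes code for proteins with C2H2 zinc fingers, loops of the chain that are held by a zinc ion between a pair of cysteines and a pair of histidines and that read DNA a few bases at a time. Many carry a KRAB box at the other end of the protein, which recruits the corepressor Trim28 (KAP1) and, through it, the histone methyltransferase Setdb1, HP1 proteins and DNA methylation. In mESCs this machinery keeps retrotransposons silent and protects the methylation of imprinted regions. The family grew by tandem duplication and lies in clusters.

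The coding sequence of the first finger that a search pattern found is printed for 6 members, chosen because the results below turn on them. An earlier finger that departs from the pattern would be missed. Zfp62, Zfp93 and Zfp39 are higher in labeled RNA, Zfp106 is lower, and Zfp57 and Zfp207 are among the most abundant. The sequences are the coding strand from GENCODE M1 transcripts (mm9, NCBIM37), and capitals mark the codons of the cysteines and histidines that hold the zinc. They begin at codon 126 of Zfp62, 287 of Zfp93, 300 of Zfp39, 142 of Zfp57, 7 of Zfp106 and 13 of Zfp207.
Zfp62: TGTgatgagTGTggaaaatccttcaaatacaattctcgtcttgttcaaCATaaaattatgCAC
Zfp93: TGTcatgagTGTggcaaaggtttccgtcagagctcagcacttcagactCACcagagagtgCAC
Zfp39: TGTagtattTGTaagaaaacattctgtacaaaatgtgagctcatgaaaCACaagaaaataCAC
Zfp57: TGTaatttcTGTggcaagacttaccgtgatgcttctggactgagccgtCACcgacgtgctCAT
Zfp106: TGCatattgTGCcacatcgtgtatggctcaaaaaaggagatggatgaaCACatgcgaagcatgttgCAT
Zfp207: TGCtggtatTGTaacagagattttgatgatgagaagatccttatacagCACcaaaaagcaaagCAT
The search pattern fixes the spacing from the second cysteine to the first histidine, so all 6 had to share it. Zfp62, Zfp93, Zfp39 and Zfp57 also share the spacing between the histidines, which the pattern lets vary and which is longer in Zfp106 and Zfp207. Thymine, the base that 4sU replaces as uridine in RNA, makes up from 22.2% of the finger in Zfp93 to 33.3% in Zfp62.
The mm9 positions of these genes are chr11:49016794-49032318 on the plus strand for Zfp62 (ENSMUSG00000046311), chr11:58701655-58717727 on the minus strand for Zfp39 (ENSMUSG00000037001) and chr11:80196781-80219235 on the plus strand for Zfp207 (ENSMUSG00000017421). Zfp93 (ENSMUSG00000055305) is at chr7:25055439-25061846 and Zfp57 (ENSMUSG00000036036) at chr17:37138108-37147580, both on the plus strand. Zfp106 (ENSMUSG00000027288) is at chr2:120332556-120389579 on the minus strand.

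Across the members, the longest protein held a median of 10 fingers by the pattern used and at most 36, and 7 members had none. A KRAB box was found in 69 members by a strict pattern and in 83 by a wider one, and both miss boxes that have diverged. Chromosome 7 carries 52 members, and chromosomes 13 and 17 carry 20 each. Another member lies within 100 kb of 92 of them. The most abundant transcript has a median of 5 exons in Zfp genes and 6 in protein-coding genes. Over 5% of the 100-base windows of that transcript are found in another gene for 8 members, among them Zfp97 at 68.0%, Zfp534 at 39.4% and Zfp456 at 26.2%, so the values of these 8 are uncertain.

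The Zfp genes were widely detected at modest levels in total RNA. Levels are deposited abundances normalized for length, summed per gene, on a scale of 19988830 to 19992902 units per library. A mean exonic abundance of at least 20 over the 12 libraries, the limit for testing, was reached by 153 members, which is 77.3% of all 198, against 49.5% of the 21503 protein-coding genes. Of these, 7 had a mean of at least 1000, 83 lay between 100 and 1000 and 63 between 20 and 100. The median level in total RNA was 121 for the Zfp genes tested and 169 for the protein-coding genes tested. The other 42 members with rows had a mean below 20, and 4 of them, Zfp503, Zfp474, Zfp366 and Zfp541, had no exonic value above 1 in any library. Missing values are the deposit's own and were taken as 0 here.

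Zfp207, a protein of the mitotic spindle and kinetochore that also acts in splicing, was the most abundant, at 15088 ± 2324 (SD, n = 6) exonic units in total RNA. Zfp534, a KRAB zinc finger gene, followed at 11042 ± 1283, and Zfp57, which keeps the methylation of imprinted regions, at 9030 ± 1701 (SD, n = 6 each). Zfp106, an RNA-binding protein needed by motor neurons and muscle, stood at 8066 ± 1304 (SD, n = 6). The ranges of each neighboring pair overlapped between libraries, while within each of the 6 total libraries the levels stood in this order. Zfp445, which acts beside Zfp57 at imprinted regions, had a level of 128 ± 18.9 (SD, n = 6).

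Other Zfp genes with a known role spread over a wide range in total RNA. Zfp462, which restrains differentiation genes through heterochromatin, had an exonic level of 725 ± 92.7 (SD, n = 6). Zfp281, a transcription factor of the exit from naive pluripotency, stood at 600 ± 72.8 and Zfp296, a partner of pluripotency factors, at 38.8 ± 14.6 (SD, n = 6 each). Zfp521, a regulator of blood and neural progenitors, was at 2.02 ± 1.09 and was not tested, while Zfp423, a cofactor in BMP signaling, was at 173 ± 52.6 (SD, n = 6 each).

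The first comparison asks which Zfp transcripts are over-represented among RNA made during labeling. In exons, 22 of the 153 Zfp genes tested were higher in labeled than in total RNA, which is 14.4%, against a background of 5.28% of all 13977 genes tested (limma on log2(value + 1), Benjamini-Hochberg adjusted p below 0.05). Only 3, or 1.96%, were lower, against a background of 11.6%. The log2 ratio was above 0 in 117 Zfp genes (76.5%, background 45.6%), and its median was 0.23 against -0.046 over all genes. In 13 Zfp genes every labeled library lay above every total library (8.50%, background 2.72%), and in 0 every labeled library lay below (background 7.28%).

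With the replicates treated as pairs, 13 Zfp genes were higher and 0 lower (background 3.26% and 5.83%). With labeled replicate 2 at 15 min left out the counts were 20 and 7 (background 5.56% and 15.1%) and the median log2 was 0.15. With labeled replicate 2 at 60 min left out they were 29 and 2 (background 7.56% and 10.9%). Without both labeled libraries whose intronic share lay within the range of total RNA they were 27 and 7 (background 8.49% and 14.7%). With either replicate left out, which leaves 1 labeled and 1 total library at each time, 0 passed in each direction (limma; background 0% higher without replicate 1 and 0.0358% without replicate 2). At an unadjusted p below 0.05, 13 were higher and 0 lower without replicate 1 (background 4.22% and 5.48%), and 18 and 3 without replicate 2 (background 7.03% and 7.99%). The median log2 was 0.25 without replicate 1 and 0.16 without replicate 2. These calls are relative to a fixed total per library. With each library scaled to its exonic median, 30 were higher and 3 lower (background 7.55% and 14.7%), and with only the most abundant transcript of each gene, 15 and 1 of 131 (background 5.01% and 12.6%).

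**Figure D1:**
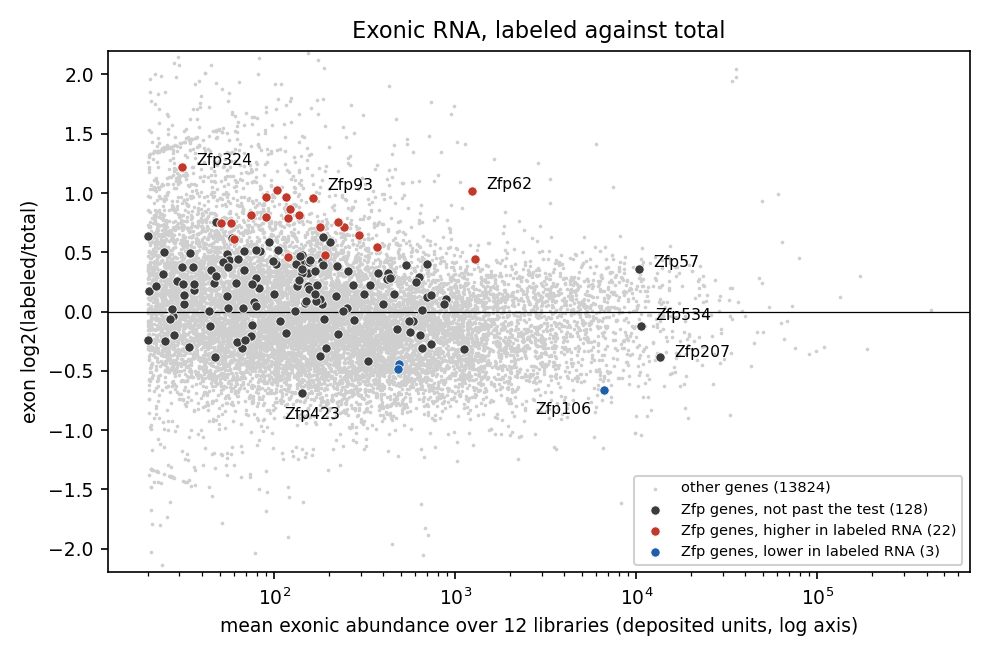
Exon log2 ratio of labeled to total RNA (vertical axis, fitted over 12 libraries) against mean exonic abundance (horizontal log axis, deposited units) for all genes tested. Gray points are other genes, black points Zfp genes that did not pass the test, red points the 22 higher and blue points the 3 lower in labeled RNA, most Zfp genes lie above 0, and 137 genes, none of them Zfp genes, fall outside the plotted range.

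Zfp62, which carries 25 fingers, combined a high level with a high ratio. Its exonic abundance ran from 1140 to 2340 in the 6 labeled libraries, with a median of 1614, and from 585 to 1012 in the 6 total libraries, with a median of 806. The groups did not overlap, and labeled replicate 2 at 60 min was the lowest of the labeled libraries. The log2 ratio was 1.01 ± 0.19 (SE), a 2.02-fold difference (limma, adjusted p = 0.00543). At the single labeling times it was 1.07 at 15 min, 0.91 at 30 min and 1.06 at 60 min.

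Zfp93, with 13 fingers, had the smallest adjusted p among the Zfp genes. Its labeled libraries ran from 165 to 240 (median 225) and its total libraries from 93.7 to 138 (median 105). They did not overlap, and the ratio was above 0.8 on the log2 scale at each labeling time. The log2 ratio was 0.96 ± 0.14 (SE; limma, adjusted p = 0.00152).

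The highest ratio belonged to Zfp324, a KRAB zinc finger gene at a low level. Its labeled libraries ran from 22.5 to 57.0 (median 45.3) and its total libraries from 9.25 to 25.3 (median 18.7). They overlapped through 1 labeled library, replicate 2 at 60 min. The log2 ratio was 1.22 ± 0.27 (SE; limma, adjusted p = 0.0124).

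Zfp386, Zfp444 and Zfp507 complete the 6 highest. Zfp386 ran from 61.9 to 236 in labeled (median 141) and from 44.7 to 94.2 in total libraries (median 63.1), which overlap. Its log2 ratio was 1.03 (limma, adjusted p = 0.0264, and 0.0559 with replicates as pairs). Zfp444, a gene with a SCAN domain for protein pairing, ran from 73.8 to 213 in labeled (median 156) and from 62.7 to 97.4 in total libraries (median 74.6), with overlap, and had a log2 ratio of 0.97 (limma, adjusted p = 0.0204). Zfp507 ran from 76.7 to 203 (median 108) and from 50.9 to 64.1 (median 60.3) without overlap, and had a log2 ratio of 0.96 (limma, adjusted p = 0.0106). For its most abundant transcript alone, the log2 ratio of Zfp507 was 0.33 (limma, adjusted p = 0.108).

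Of the other 16 genes that were higher, the log2 ratio ran from 0.45 in Zfp60 to 0.87 in Zfp408. The groups did not overlap in Zfp408, Zfp418, Zfp39, Zfp41, Zfp78, Zfp180, Zfp27, Zfp37 and Zfp597. The remaining gene without overlap was Zfp90, which did not pass the test (limma, adjusted p = 0.126). Zfp39 ran from 137 to 261 in labeled (median 164) and from 73.6 to 123 in total libraries (median 102). They overlapped in Zfp446, Zfp111, Zfp553, Zfp108, Zfp157, Zfp239 and Zfp60. Zfp60, the most abundant of the 16 at 1086 ± 141 (SD, n = 6) in total RNA, shares 9.51% of its windows with other genes. With replicates as pairs, Zfp597, Zfp239, Zfp157, Zfp108, Zfp27, Zfp553, Zfp180 and Zfp418 did not pass (limma, adjusted p from 0.0518 to 0.111), and the other 8 of the 16 did.

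The genes that were lower in labeled RNA were Zfp106, Zfp318 and Zfp451. Zfp106 ran from 3092 to 6535 in labeled (median 5603) and from 6312 to 9268 in total libraries (median 8670), where the highest labeled library, replicate 2 at 15 min, reached into the total range. Its log2 ratio was -0.66 ± 0.16 (SE; limma, adjusted p = 0.0195, and 0.0659 with replicates as pairs). For its most abundant transcript alone it was -0.74 (limma, adjusted p = 0.0718).

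Zfp318, which acts in RNA processing in B cells, ran from 331 to 474 in labeled (median 432) and from 469 to 613 in total libraries (median 571). Its log2 ratio was -0.44 (limma, adjusted p = 0.0232, and 0.0678 as pairs), and -0.20 for its most abundant transcript alone (limma, adjusted p = 0.263). Zfp451, a SUMO ligase, ran from 298 to 509 (median 416) and from 476 to 649 (median 547), with a log2 ratio of -0.49 (limma, adjusted p = 0.0455, 0.0815 as pairs and 0.0628 without labeled replicate 2 at 15 min). In both the groups overlapped, and labeled lay below total in all 6 pairs of libraries.

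**Figure D2:**
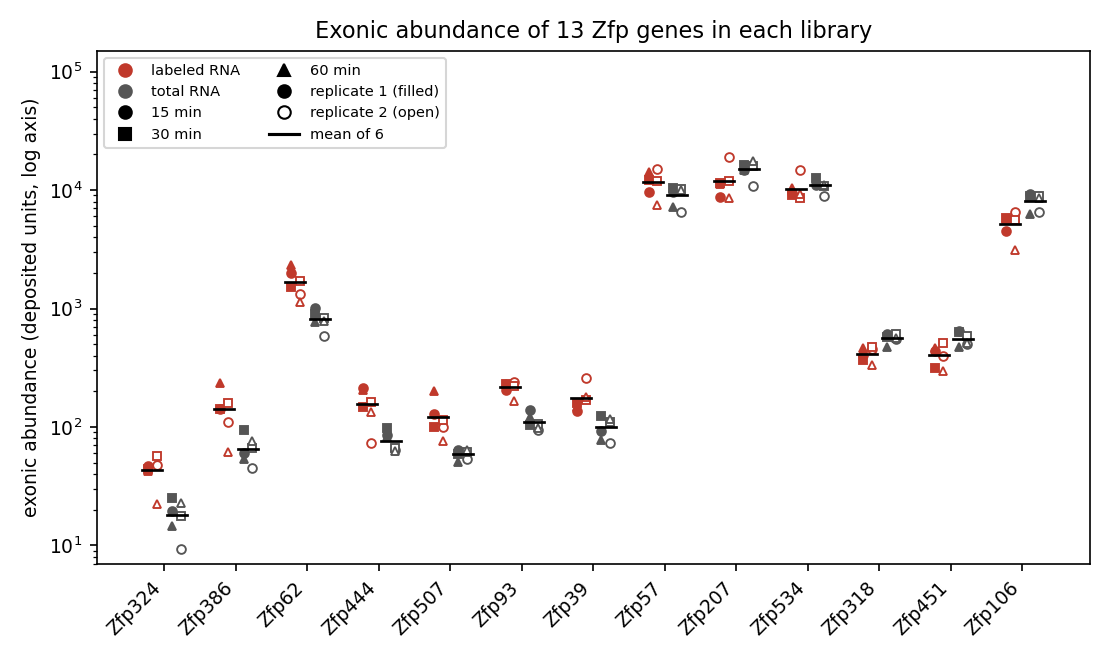
Exonic abundance (vertical log axis, deposited units) of 13 Zfp genes in each of the 12 libraries, with labeled RNA in red on the left and total RNA in gray on the right, the labeling time as the symbol, replicate 1 filled and replicate 2 open, and the mean of 6 libraries as a bar. Labeled libraries of Zfp62, Zfp93 and Zfp507 lie above all their total libraries, and the open circle of labeled replicate 2 at 15 min is the highest labeled point of Zfp57, Zfp207, Zfp534 and Zfp106.

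With all libraries, Zfp423 had the lowest log2 ratio of all Zfp genes tested, -0.68 ± 0.29 (SE), and did not pass the test (limma, adjusted p = 0.131). Its labeled libraries ran from 40.7 to 153 (median 115) and its total libraries from 113 to 249 (median 179). The value of 40.7 is that of labeled replicate 2 at 60 min, and the next lowest labeled library stood at 101. Zfp266, a KRAB zinc finger gene, and Zfp207 complete the 6 lowest, with log2 ratios of -0.42 and -0.38 that did not pass (limma, adjusted p = 0.145 and 0.189). Without labeled replicate 2 at 15 min both did, at -0.56 and -0.57 (limma, adjusted p = 0.0280 and 0.00809).

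Among the 18 Zfp genes with a known role, 17 were tested, 0 were higher and 1, Zfp106, was lower (background 5.28% and 11.6%). Zfp57 had a log2 ratio of 0.36 ± 0.18 (SE; limma, adjusted p = 0.192) and ran from 7442 to 14973 in labeled (median 12022) and from 6569 to 10450 in total libraries (median 9835). The groups overlapped, with labeled above total in 5 of 6 pairs. Zfp462 had a log2 ratio of -0.31 (limma, adjusted p = 0.0702) and Zfp384, a factor that binds stretches of A and T, of -0.32 (limma, adjusted p = 0.0957). When labeled replicate 2 at 15 min was left out both passed as lower, at -0.35 and -0.41 (limma, adjusted p = 0.0425 and 0.0128), and so did Zfp292, at -0.43 (limma, adjusted p = 0.0367), which is -0.27 with all libraries.

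The other known-role genes had smaller ratios. Log2 ratios were -0.078 for Zfp281, 0.0068 for Zfp445, 0.12 for Zfp326, a factor of the elongation and splicing machinery, and -0.082 for Zfp568, the repressor of a placental Igf2 promoter. Zfp143, which binds promoters and loop anchors, stood at 0.091, Zfp148, a factor for GC-rich promoters, at 0.065, and Zfp217, a partner of CoREST, at -0.060. Zfp335, which joins a histone methyltransferase complex, stood at 0.21, Zfp91, a ubiquitin ligase, at -0.075, and Zfp296 at 0.0078 ± 0.46 (SE). None passed the test (limma, adjusted p from 0.538 to 0.994), and the direction of 8 of them, Zfp445, Zfp568, Zfp281, Zfp296, Zfp143, Zfp148, Zfp217 and Zfp91, changed when libraries were left out.

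Members with and without the KRAB box were set side by side. Of 55 tested Zfp genes with the strict pattern, 7 were higher and 0 lower, with a median log2 of 0.24 (all genes 5.28% higher, 11.6% lower and a median of -0.046). Of the 98 without it, 15 were higher and 3 lower, with a median of 0.23. By the wider pattern the medians were 0.33 for 67 genes and 0.18 for 86. Protein-coding genes with the strict pattern under other names, 155 of them tested, had 16 higher, 0 lower and a median of 0.26. Those with at least 3 fingers and no such pattern, 179 tested, had 17 higher, 7 lower and a median of 0.18.

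The ratio varied with exon number, as it did among other protein-coding genes. Zfp genes with 3 or fewer exons had a median log2 of 0.44 (31 genes, 10 higher, 1 lower), those with 4 to 6 exons 0.33 (85 genes, 11 higher, 0 lower) and those with 7 or more -0.039 (37 genes, 1 higher, 2 lower). Other protein-coding genes in these classes had medians of 0.13 (1625 genes, 158 higher, 94 lower), 0.049 (2650 genes, 175 higher, 212 lower) and -0.16 (6209 genes, 141 higher, 1055 lower). Across the 153 Zfp genes the log2 ratio and the exon number had a Spearman correlation of -0.43 and a Pearson correlation of -0.35, against -0.35 and -0.27 across 10637 protein-coding genes. Genes share the same libraries and are not independent replicates, so these are descriptions. Exon number is that of the most abundant transcript, which can be a short one. That of Zfp106, the lower gene among those with 3 or fewer exons, has 505 bases and 3 exons. That of Zfp423 has 371 bases and 2 exons.

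**Figure D3:**
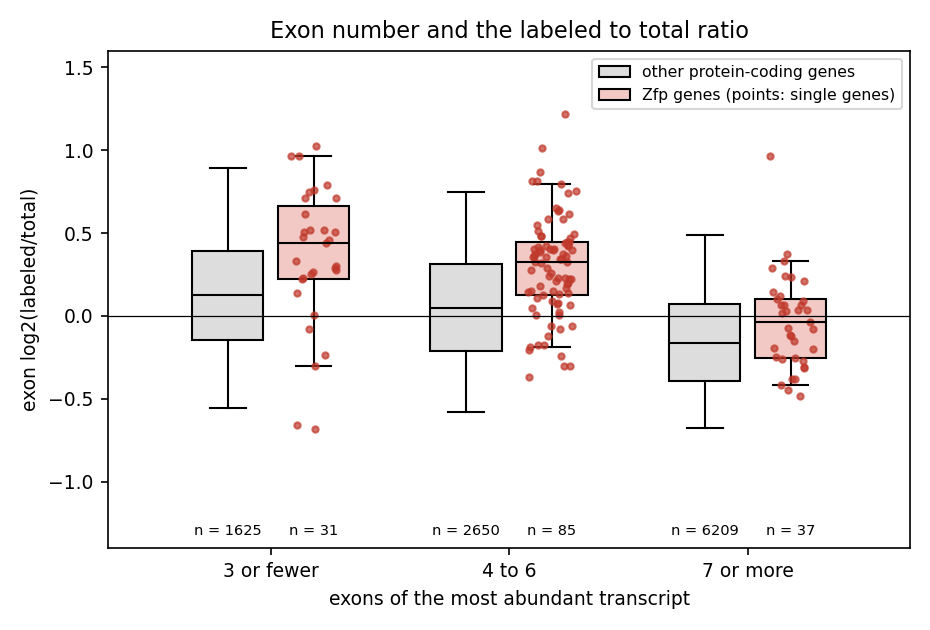
Exon log2 ratio of labeled to total RNA (vertical axis) by the exon number of the most abundant transcript (horizontal axis), for other protein-coding genes in gray and Zfp genes in red. Boxes give the quartiles with the median as a line, whiskers run from the 5th to the 95th percentile, points are single Zfp genes, and the medians of Zfp genes lie above those of other protein-coding genes in all 3 classes.

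Zfp genes with and without a close neighbor of the family were also set side by side. The 67 tested members with another within 100 kb had a median log2 of 0.34, with 10 higher and 0 lower, and the 86 without had 0.14, with 12 higher and 3 lower (background 5.28% and 11.6%). On chromosome 7, 13 of 38 tested members were higher and 0 lower (median 0.44), against 8.07% and 9.11% of 768 other protein-coding genes there. On chromosome 13, 0 of 17 were higher or lower (median 0.23), against 3.02% and 10.4% of 431 others.

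The largest clusters are described first, against the background of 5.28% higher over all genes. In the chromosome 7 cluster from 24866943 to 25101685 (mm9), which holds 10 members from Zfp180 to Zfp94, all 8 tested members had a log2 ratio above 0, with a median of 0.68. There Zfp93, Zfp111, Zfp180 and Zfp108 passed the test, at 0.96, 0.76, 0.74 and 0.61, the latter pair not with replicates as pairs. Zfp94, Zfp61, Zfp235 and Zfp109 did not, at 0.75, 0.58, 0.50 and 0.30 (limma, adjusted p from 0.0884 to 0.366). The larger cluster on the same chromosome from 30553571 to 30954746, with 12 members, had 1 of 9 tested members higher, Zfp27. There 8 of the 9 had a log2 ratio above 0, with a median of 0.29. In the cluster of 9 on chromosome 13, from 67295442 to 67627087, 0 of 8 passed, all 8 lay above 0 and the median was 0.22. Among smaller clusters, that of 5 members on chromosome 7 from 13390326 to 13569689 had 2 of 4 tested members higher and a median of 0.64. That of 4 on chromosome 9 from 20149580 to 20325861 had 0 of 3 higher, 1 of 3 above 0 and a median of -0.20. No difference between clusters was tested.

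Introns report on RNA that is not yet spliced, and on the scale as deposited most genes had more of it in labeled RNA. Of 168 Zfp genes with a mean intronic abundance of at least 5, 56 were higher in labeled RNA, which is 33.3%, against a background of 30.2% of 14780 genes, and 0 were lower (background 0.21%; limma, adjusted p below 0.05). The median log2 was 0.73 for Zfp genes and 0.65 for all genes. At an unadjusted p below 0.05, 1 Zfp gene was lower (background 0.365%). The share called was therefore near the background.

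These counts depend on the scaling and on the libraries. With each library scaled to its own intronic median the median over all genes moved from 0.65 to -0.051, and 14 Zfp genes were higher and 6 lower (background 5.56% and 6.74%). With quantile normalization 14 were higher and 3 lower (background 5.99% and 5.41%). With replicates as pairs 80 were higher (47.6%, background 39.3%). Without replicate 1, 18 were higher (10.7%, background 11.7%) and 2 lower (1.19%, background 0.69%). Without replicate 2, 106 were higher (63.1%, background 47.3%). Without labeled replicate 2 at 15 min 101 were higher and 1 lower (background 54.2% and 0.25%), and without labeled replicate 2 at 60 min 111 were higher (background 50.7%). Without both, 157 were higher and 1 lower (background 88.8% and 0.372%).

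Zfp414 had the highest intronic ratio. Its introns ran from 97.8 to 232 in labeled (median 181) and from 22.4 to 45.1 in total libraries (median 33.5), without overlap. The log2 ratio was 2.33 ± 0.27 (SE; limma, adjusted p = 0.00123), while in its exons it was -0.18 (limma, adjusted p = 0.454). Zfp579 ran from 25.7 to 104 in labeled (median 84.9) and from 5.27 to 28.0 in total libraries (median 15.0), which overlap by 1 library each, with a log2 ratio of 2.16 (limma, adjusted p = 0.00223).

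Zfp580 ran from 2.07 to 21.7 in labeled and from 0 (a missing value) to 5.75 in total libraries, so the groups overlapped. Its log2 ratio was 1.96 ± 0.61 (SE; limma, adjusted p = 0.0271, and 0.185 with median scaling). At the other end, Zfp9, Zfp457 and Zfp407 had log2 ratios of -0.77, -0.38 and -0.33, none past the test (limma, adjusted p = 0.0660, 0.349 and 0.637). With labeled replicate 2 at 60 min left out they were -0.57, -0.041 and 0.16, and that of Zfp407 ran from -1.15 to 0.57 over the alternatives that leave out libraries. With median scaling Zfp9 and Zfp457 were lower, at -1.47 and -1.08 (limma, adjusted p = 0.0235 and 0.0285), and at -1.42 and -0.89 when that library was also left out (limma, adjusted p = 0.0408 and 0.0396).

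Zfp457 and Zfp9, both KRAB zinc finger genes, had more intronic than exonic signal. In total RNA, introns made up 89.3% of the summed abundance of Zfp457, 81.1% of that of Zfp560, 80.0% of that of Zfp9 and 78.6% of that of Zfp444. Over the 145 Zfp genes tested in both, the median intronic share was 19.6 ± 1.47% in total and 28.3 ± 10.4% in labeled libraries (SD, n = 6 each), against 14.4 ± 1.02% and 23.1 ± 8.20% over 9693 protein-coding genes. Labeled replicate 2 lay at 15.3% at 15 min and 19.8% at 60 min, inside or below the range of total libraries for Zfp genes, 18.0% to 22.4%.

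Exons and introns of these 145 genes were compared gene by gene. The intronic log2 ratio exceeded the exonic one in 131 (90.3%), against 94.1% of 10228 genes of all kinds, but in 43 (29.7%, background 48.2%) with each library scaled to its exonic and its intronic median, and in 78 (53.8%, background 75.1%) without replicate 1. Of the 21 that were higher in exons, 11 (52.4%) were also higher in introns, among them Zfp93, Zfp408, Zfp111, Zfp41 and Zfp446, against 65.2% of the 540 genes of all kinds that were higher in exons. With median scaling these were 8 of 29 (27.6%), against 17.5% of 817. Without labeled replicate 2 at 15 min they were 14 of 19 (73.7%, all genes 82.2%). Without that at 60 min they were 26 of 28 (92.9%, all genes 84.6%), and without both 26 of 26 (100%, all genes 95.2%). Whether Zfp genes lay above or below all genes thus depended on the setting. Of the 49 that were higher in introns in the main fit, the 11 shared genes make up 22.4% (background 11.2%), and the other 38 did not pass in exons. Across the 145 genes the ratios had a Spearman correlation of 0.49 and a Pearson correlation of 0.42, against 0.39 and 0.38 over 10228 genes of all kinds.

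**Figure D4:**
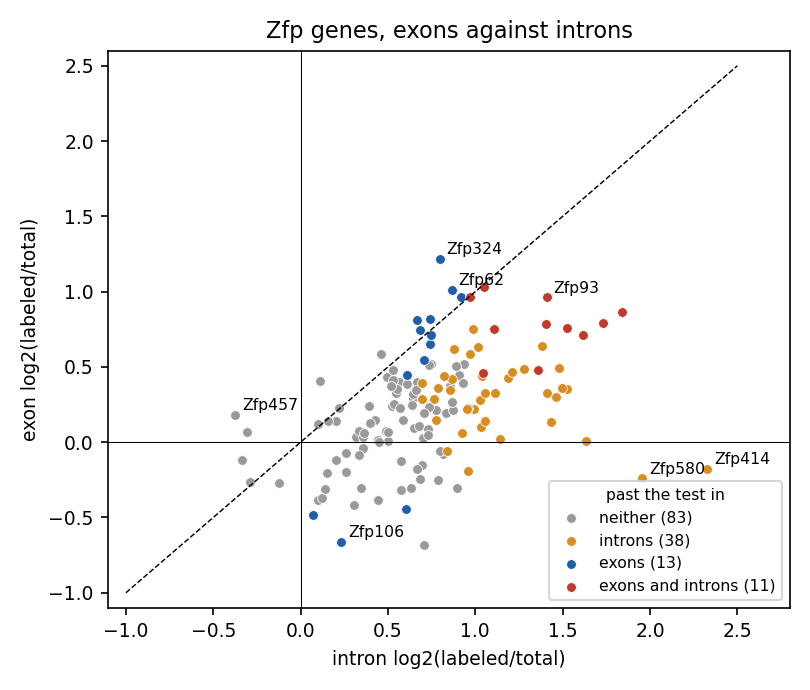
Exon log2 ratio (vertical axis) against intron log2 ratio (horizontal axis) of labeled to total RNA for the 145 Zfp genes tested in both. Colors give the test that each gene passed, the dashed line marks equal ratios, 131 genes lie below it (43 with median scaling), and Zfp414 and Zfp580 stand apart with high intronic and slightly negative exonic ratios.

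The labeling times were then taken singly, with 2 labeled and 2 total libraries each and a spread pooled over all groups. In exons, 0 Zfp genes passed the test at 15 min (background 0%), 0 at 30 min (background 0.0286% higher) and 0 at 60 min (background 0%; limma, adjusted p below 0.05). At an unadjusted p below 0.05, 26 were higher and 0 lower at 15 min (background 5.07% and 6.14%), 7 and 1 at 30 min (4.42% and 7.43%), and 10 and 3 at 60 min (3.26% and 8.62%). The median log2 was 0.45, 0.11 and 0.17 at the 3 times, against -0.012, -0.077 and -0.079 over all genes. The 15 min value includes the labeled library that was highest for most Zfp genes and total replicate 2 at 15 min, which was the lowest total library for 71 of 153. Without that labeled library the 15 min median was 0.097 (all genes -0.14), and at an unadjusted p below 0.05 14 were higher and 2 lower (background 4.42% and 10.2%). At 60 min without labeled replicate 2, the median was 0.32 (all genes 0.055), and 27 were higher and 2 lower at an unadjusted p below 0.05 (background 8.93% and 6.47%).

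Change over labeling time was tested within labeled RNA, within total RNA and as the change of their ratio from 15 to 60 min. In each, 0 Zfp genes passed the test (background 0%; limma, adjusted p below 0.05). At an unadjusted p below 0.05, 0 were higher and 1 lower in labeled RNA (background 0.265% and 1.01%), 2 and 1 in total RNA (0.415% and 0.358%), and 0 and 2 for the ratio (0.365% and 0.794%). The median log2 change was -0.20 in labeled RNA (all genes -0.095), 0.061 in total RNA (-0.0070) and -0.29 in the ratio (-0.083). Without labeled replicate 2 at 15 min the median change in labeled RNA turned to 0.036 (all genes 0.023) and that of the ratio was -0.020 (all genes 0.035). With the one at 60 min left out instead they were -0.027 (all genes 0.082) and -0.064 (all genes 0.078). In simulated data of this size the test of labeled RNA recovered 72 of 100 genes with a log2 change of 2 and 15 of 100 with a log2 change of 1. The simulated noise was independent between genes, without the deviations that whole libraries show here.

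Zfp423 had the largest fall in labeled RNA between 15 and 60 min, -1.20 on the log2 scale (limma, unadjusted p = 0.0314), and -0.55 without labeled replicate 2 at 60 min. Zfp551 followed with -1.18, and -0.40 without labeled replicate 2 at 15 min or -0.57 without that at 60 min. Zfp362 and Zfp382 had the largest rises, 0.63 and 0.42, which were 0.38 and -0.040 without labeled replicate 2 at 60 min, so that of Zfp382 rests on this library. For the ratio the lowest changes were -1.47 in Zfp286 and -1.33 in Zfp423, and the highest 1.27 in Zfp580 and 1.24 in Zfp362. These were -1.03, -0.68, 0.47 and 0.99 without labeled replicate 2 at 60 min. None passed the adjustment over all genes.

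The study derived rates of synthesis, processing and degradation from these data, to ask how efficiently transcripts are spliced. Here the synthesis rate is the labeled exonic abundance per hour, processing is synthesis divided by the intronic abundance of total RNA, and degradation is synthesis divided by its exonic less its intronic abundance. Each was divided by the median of protein-coding genes at the same labeling time and averaged over the 3 times. The hours cancel in this division, so the relative rates are ratios of abundances. The degradation rate holds the same labeled and total values as the exonic ratio, so it is not independent of it.

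The processing rate of Zfp genes was near that of protein-coding genes. Its median was 0.952 over 171 Zfp genes, with quartiles of 0.503 and 1.76, and 1.05 over 11601 protein-coding genes, with quartiles of 0.513 and 2.06. Of the Zfp genes, 43.3% lay above the protein-coding median. The value was 1.05 at 15 min alone and 1.08 without replicate 1, so its side of 1 was not stable.

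Zfp534, Zfp330 and Zfp161 had the highest relative processing rates. Zfp534 stood at 17.4 (15.7 in replicate 1 and 21.2 in replicate 2), which is the 98.8th percentile of protein-coding genes, although 39.4% of its windows are shared with other genes. Zfp330, a nucleolar protein, stood at 10.9 (11.6 and 10.8), and Zfp161, which also carries a BTB domain, at 6.41 (6.08 and 18.5). The introns of Zfp161 in total RNA ran from 1.02, in replicate 2 at 15 min, to 10.4. Values of 1 or less are missing, so its rate and rank are uncertain. Zfp207 stood at 5.20 (4.48 and 6.35), with introns making up 3.29% of its signal in total RNA.

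Zfp457, Zfp560 and Zfp9 had the lowest, at 0.0311 (0.0300 and 0.0348), 0.0669 (0.0720 and 0.0696) and 0.0785 (0.109 and 0.0629). Intronic abundance of total RNA is the divisor of this rate, so a high intronic share and a low rate are not independent. The deposited values do not show which intron of a gene the signal comes from.

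The degradation rate of most Zfp genes was above that of most protein-coding genes. Its median was 1.38 over 155 Zfp genes, with quartiles of 1.10 and 1.98, and 1.01 over 11653 protein-coding genes, with quartiles of 0.790 and 1.41. Of the Zfp genes, 80.6% lay above the protein-coding median and 18.7% above the rate that 10.0% of protein-coding genes exceed. With either replicate or with any single labeling time the median stayed above 1. Subtracting introns in the divisor raises this rate. The median intronic share in total RNA was 19.6% over 145 Zfp genes and 14.4% over 9693 protein-coding genes. The part of this difference in the higher rate was not tested.

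Zfp62 stood at a relative degradation rate of 3.99 (4.22 in replicate 1 and 3.82 in replicate 2), the 96.3rd percentile of protein-coding genes. Its introns amounted to 452 ± 117 (SD, n = 6) of 813 exonic units in total RNA, and subtracting them raises the rate. Zfp93 stood at 2.11 (2.02 and 2.22), Zfp507 at 2.71 (3.11 and 2.25) and Zfp324 at 3.44 (3.57 and 9.53). In total replicate 2 at 15 min Zfp324 had 9.25 exonic and 7.72 intronic units, so its 9.53 includes a division by a small difference. The lowest relative rates were 0.574 for Zfp106 (0.586 and 0.582), 0.607 for Zfp423 (0.695 and 0.636), 0.690 for Zfp318 (0.693 and 0.689) and 0.705 for Zfp207 (0.594 and 0.838). Zfp57 stood at 1.39 (1.40 and 1.46), Zfp281 at 0.811 (0.717 and 0.928) and Zfp462 at 0.750 (0.694 and 0.823).

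**Figure D5:**
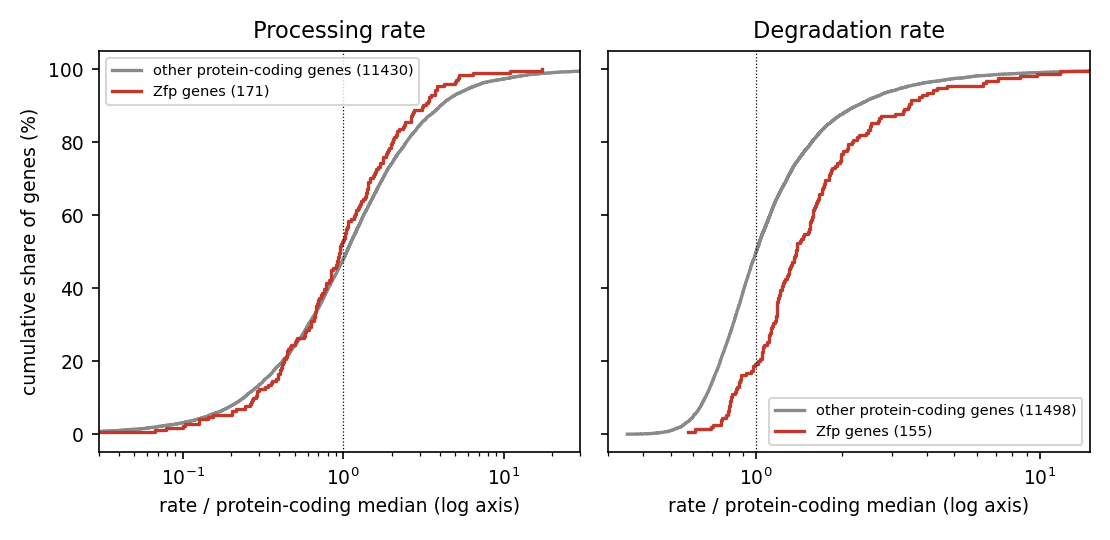
Cumulative share of genes (vertical axis, percent) against the processing rate (left) and the degradation rate (right), each relative to the protein-coding median (horizontal log axes), for Zfp genes in red and other protein-coding genes in gray. The processing curves lie close together, while the degradation curve of Zfp genes lies to the right, with a median of 1.38.

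The corepressors that KRAB zinc finger proteins work with showed the opposite balance in exons. Of 22 genes on that list, all tested, 1 was higher and 9 were lower in labeled RNA, with a median log2 of -0.43 (background 5.28% higher and 11.6% lower). These calls are from the main fit only. With replicates as pairs, lower calls over all genes fell to 5.83%, so calls near the limit may not hold. Trim28 itself ran from 5347 to 9395 over the 12 libraries and had a log2 ratio of -0.39 ± 0.12 (SE; limma, adjusted p = 0.0420). Chd4, the remodeler of the NuRD complex, stood at -0.74 (limma, adjusted p = 0.000860) and Dnmt1, the maintenance DNA methyltransferase, at -0.70 (limma, adjusted p = 0.00159).

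The others that were lower were Ehmt2, a histone methyltransferase, Cbx3 and Cbx5, which are HP1 proteins, Atf7ip, a partner of Setdb1, Uhrf1, which brings Dnmt1 to replicated DNA, and Pphln1, a subunit of the HUSH complex. Their log2 ratios ran from -0.62 in Ehmt2 to -0.30 in Cbx5 (limma, adjusted p from 0.0116 in Uhrf1 to 0.0480 in Cbx5). Setdb1 stood at -0.42 and did not pass (limma, adjusted p = 0.0537). The gene that was higher was Suv39h1, a histone methyltransferase of heterochromatin, at 0.65 (limma, adjusted p = 0.0449). In introns, 3 of the 22 were higher and 1 was lower, the latter being Mphosph8, another HUSH subunit (background 30.2% and 0.21%).

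Immediate early genes, whose transcripts are known to be short-lived, and ribosomal protein genes, whose transcripts are known to be stable, were set beside the Zfp genes. Of 15 immediate early genes, 7 were tested in exons, 5 were higher and 0 lower (background 5.28% and 11.6%), and the median log2 was 1.11. Dusp1, a phosphatase of MAP kinases, ran from 354 to 1374 and had a log2 ratio of 1.15 (limma, adjusted p = 0.00495). Of 79 ribosomal protein genes, 78 were tested in exons, 6 were higher and 2 lower, with a median of 0.11, which is above the median of all genes. The Zfp median of 0.23 lay between those of the ribosomal protein and the immediate early genes.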

How the data were processed

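The study labeled mESCs with 4sU for 15, 30 or 60 min and sequenced labeled and total RNA, with 2 biological replicates. Per the labels and the methods, the authors removed rRNA reads with STAR 2.5.0, aligned the rest to exonic and intronic sequences and quantified them with RSEM, and the labels name mm10. The deposited values are a signal, length-normalized abundances of exons and introns per transcript, which the authors scaled together to between 19988830 and 19992902 per library. Values of 1 or less are missing and were taken as 0, and the sequencing depth is unknown, so no counting error can be given. Their INSPEcT rates were not used here.

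Abundances were summed per gene over GENCODE M1 (mm9), which holds 69.1% of the exonic rows, 73.8% of the exonic and 78.8% of the intronic signal. For labeled against total RNA, limma 3.58.1 (R 4.3.3) was fitted to log2(value + 1), a scale that understates the change of low genes. The model held the labeling time, variances followed the mean, and p-values were adjusted by Benjamini-Hochberg over every gene with a mean of at least 20 in exons or 5 in introns. Single times used a 6-group model. Per the labels, a number marks a biological replicate, a separately passaged culture, so it was taken to pair labeled with total RNA, although deviations of same-numbered libraries correlated at -0.069, 0.048 and -0.19 across genes at 15, 30 and 60 min. On simulated data, limma recovered 70 of 100 exonic log2 changes of 1 and 96 of 100 of 2, with 10 false calls among 13977 genes. For introns it recovered 13 and 69 of 100, with 8 false calls among 14780 genes. The simulated noise was drawn separately for each gene and library. It holds no deviation that many genes of 1 library share, as the labeled libraries here do. These figures therefore do not give the error rate of the fits to the real data.

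Alternatives were another pseudocount, filter or scaling, the replicate block, single transcripts, and libraries left out. Those without labeled replicate 2 at 60 min, the 15 min comparison without labeled replicate 2, median scaling combined with the first of these, the wider KRAB pattern and the shared windows were added after seeing the data. The Zfp genes, the lists and the other alternatives were chosen with earlier results of these data known. Named genes are those with a known role, the 6 highest and lowest exon ratios, the 3 highest and lowest intron ratios and processing rates, the 3 most abundant, the 2 highest and lowest changes over time, and the corepressors. Genes that passed the exon test and members of clusters, and Zfp90, were named after their values were seen. KRAB boxes and fingers were found by pattern in translated GENCODE M1 coding sequences. Python 3.11.15 with pandas 2.3.3 and matplotlib 3.10.9 was used.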

Additional observations from a re-analysis of the deposited data

Results flagged for a closer look

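Among 94 groups of 6 libraries checked for the genes named by rule, 9 held 1 library far from the rest by Dixon's test, where chance alone gives about 4.70. In 7 of the 9 that library was labeled replicate 2 at 15 min, and the value was the highest of the labeled libraries. The exonic abundances there were 759 for Zfp568 (next highest 537), 141 for Zfp296 (43.6), 292 for Zfp148 (189), 19047 for Zfp207 (12027), 1393 for Zfp384 (994), 697 for Zfp462 (590) and 14829 for Zfp534 (10425). The same library had an intronic share of 7.24%, within the range of total RNA. Labeled replicate 2 at 60 min, whose intronic share was 6.99%, held the other 2 values, the highest exonic abundance of Zfp382, 133 (next 78.4), and the lowest intronic abundance of Zfp457, 59.4 (next 256).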

How the results depend on the processing

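In exons, 13 Zfp genes were higher and 0 lower with replicates as a block, and all 13 were among the 22. The block ended the calls of Zfp386, Zfp597, Zfp239, Zfp157, Zfp108, Zfp27, Zfp553, Zfp180 and Zfp418 and of Zfp106, Zfp451 and Zfp318. In introns it gave 80 higher, among them all 56. Quantile normalization gave 34 higher (background 8.07%), of which 21 were among the 22, and single transcripts gave 15 higher, all among the 22, and 1 lower of 131 genes. Leaving out libraries gave 0 to 29 higher, 0 to 7 lower and a median log2 from 0.15 to 0.30. Without labeled replicate 2 at 15 min 7 were lower and the median was 0.15, without labeled replicate 2 at 60 min the median was 0.30, and without both 7 were lower. In introns, median scaling gave 14 higher, 6 lower and a median log2 of 0.032, and quantile normalization 14, 3 and 0.060. Leaving out libraries gave 18 to 157 higher, 0 to 2 lower and a median from 0.34 to 1.17. Without replicate 1 there were 18 and 2 (background 11.7% and 0.69%), and without replicate 2 106 higher. Counts were 101 and 1 without labeled replicate 2 at 15 min, 111 higher without labeled replicate 2 at 60 min, and 157 and 1 without both. The relative processing rate had a median of 1.05 at 15 min alone, 1.08 without replicate 1, 0.996 without replicate 2, 0.855 with single transcripts and 0.818 with minimums of 20 and 5. The median of the degradation rate stayed above 1 in each of these settings. Without labeled replicate 2 at 15 min the median ratio at 15 min was 0.097, the median change of labeled RNA from 15 to 60 min turned to 0.036 and that of the ratio was -0.020. Without labeled replicate 2 at 60 min the median ratio at 60 min was 0.32 and these changes were -0.027 and -0.064. The change of Zfp382 in labeled RNA ran from -0.040 to 0.51 with either of these libraries left out. The cause of these changes was not tested.

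Exon log2 ratios near 0 changed direction. With libraries left out they ran from -0.073 to 0.18 in Zfp445, -0.28 to 0.12 in Zfp568, -0.23 to 0.076 in Zfp281, -0.57 to 0.46 in Zfp296, -0.043 to 0.17 in Zfp143, -0.12 to 0.25 in Zfp148, -0.31 to 0.13 in Zfp217, -0.18 to 0.039 in Zfp91 and -0.30 to 0.056 in Zfp534. With quantile normalization the ratio was 0.043 in Zfp568, 0.055 in Zfp281 and -0.27 in Zfp296. The intron ratio of Zfp407 ran from -1.15 to 0.57. Changes between 15 and 60 min could not be fitted without replicate 1 or 2, since no residual degrees of freedom remain. Depth is unknown, 2 replicates limit the single times, and the abundance scale is relative to each library.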
